A study of Mus musculus with 6 samples.

Results

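Genes of the Pfkfb family, glycolysis and glucose uptake were examined in the livers of mice fed soy, starting from Pfkfb3, whose large fall under the soy-enriched diet led to the choice of the set. The set held 9 genes, namely the 4 fructose 2,6-bisphosphate enzymes Pfkfb1, Pfkfb2, Pfkfb3 and Pfkfb4, the regulator of hepatic glucose phosphorylation Gckr, the liver phosphofructokinase Pfkl, the pyruvate kinase Pklr, the glucose transporter Slc2a2 and the sperm dehydrogenase Gapdhs. They were picked by name from 22911 mouse genes with a probe on the array, with the results of the same diet comparison in view. Their differences are therefore given as a description, without a test. Liver RNA came from male mice whose age is given as 12 weeks. Of these, 3 ate 100% granulated regular food (control) and 3 ate 75% regular food with 25% soy bean powder (soy) for 4 weeks. The paper gives the age for mice put on the diets, so it may not be the age at collection. Each mouse gave 1 piece of the right hepatic lobe and 1 single-colour array, and both foods were freely available. The strain, and whether food was withdrawn before collection, are not given in the sources used here. All values below are normalized signals on the log2 scale, so that a difference of 1 is a doubling, and differences are soy minus control with the standard error (SE) of the fit.

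The PFKFB proteins are bifunctional enzymes that make and break down fructose 2,6-bisphosphate, the strongest activator of phosphofructokinase and an inhibitor of fructose bisphosphatase. In hepatocytes this metabolite moves the flow of carbon between glycolysis after a meal and gluconeogenesis during fasting. Glucose enters hepatocytes through the transporter encoded by Slc2a2 and is then phosphorylated, a step that the product of Gckr restrains when glucose is low.

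Pfkfb3, the inducible isoform with a kinase activity far above its phosphatase activity, was 7.12-fold lower in soy livers than in control livers on its brighter probe (NM_133232). The 3 control arrays read 12.49, 12.33 and 12.38, whereas the 3 soy arrays read 9.72, 9.19 and 9.80. The groups were far apart, with a mean of 12.40 ± 0.083 (SD, n = 3) in control against 9.57 ± 0.33 (SD, n = 3) in soy and a difference of -2.83 (SE 0.17). Before any normalization, the median spot intensities were 7098.5, 5326.5 and 5084 in control and 842, 530 and 905 in soy. Of 15123 genes whose brightest probe exceeded background on every array of one group or the other, Pfkfb3 had the 10th lowest difference. That rank restates the choice of Pfkfb3 for its fall and is no further evidence. Arrays were read on 3 slides, of which slide 1 held control 1, control 2 and soy 1, slide 2 held soy 2, and slide 3 held control 3 and soy 3. Within slide 1 the difference was -2.69, and within slide 3 it was -2.58. In bulk liver, fewer cells of a type and less RNA per cell cannot be told apart.

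The second Pfkfb3 probe, annotated to the same transcript, was dimmer and gave a smaller difference of -0.56 (SE 0.20). It read 7.42, 7.22 and 7.18 in control and 6.35, 7.16 and 6.63 in soy. The groups did not overlap, but soy 2 lay just under the lowest control array, and the probe was well above background on only 1 of the 3 soy arrays. The probes thus pointed the same way and disagreed in size, and the sequence of neither probe was used here. Fewer probes were well above background on every soy array (28701, 29375 and 29881) than on any control array (34383, 33740 and 35521) of 56605, and the part of this in the values of dim probes was not tested.

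**Figure D1:**
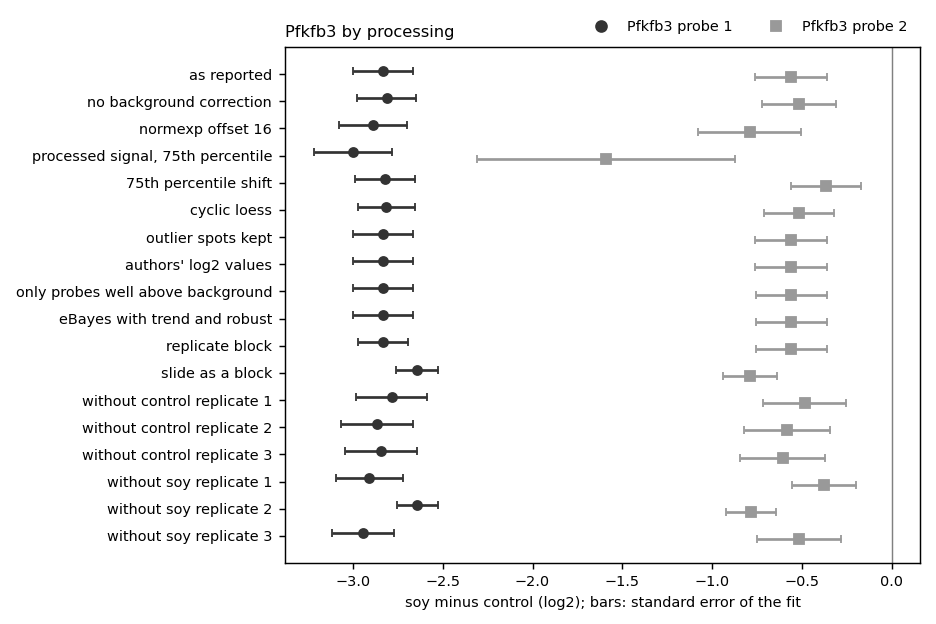
Difference in Pfkfb3 (log2, soy minus control) for its 2 probes under each way of processing the arrays, with bars of 1 SE where a fit gives one. The brighter probe stays between -3.00 and -2.64 in every setting plotted, whereas the dimmer probe moves between -1.59 and -0.36.

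Promoter windows of Pfkfb3 and Pfkfb2 are shown because these were the only genes of the 9 whose windows held ACGTG, a core motif bound by hypoxia-inducible and other basic helix-loop-helix factors. Windows of 250 bases before each RefSeq transcript start (GRCm38.p6) were searched on both strands for ACGTG, and for CACGTG, which contains ACGTG on both strands. Of 17 windows of the 9 genes, 4 windows of these 2 genes held ACGTG and 2 held CACGTG, against 16.6% and 6.02% of 32851 windows of the same length in the whole table. In the lines that follow, each sequence runs 5′ to 3′ on the minus strand and capitals mark the motif. The motif begins 60 bases before the first Pfkfb3 start at chr2:11553930-11554179, 53 bases before the second Pfkfb3 start at chr2:11502091-11502340 and 22 bases before 1 of the 3 Pfkfb2 starts, at chr1:130715822-130716071. The fourth window, before another Pfkfb2 start (chr1:130714577-130714826), held ACGTG 172 bases before that start and is not printed.
Pfkfb3 first start: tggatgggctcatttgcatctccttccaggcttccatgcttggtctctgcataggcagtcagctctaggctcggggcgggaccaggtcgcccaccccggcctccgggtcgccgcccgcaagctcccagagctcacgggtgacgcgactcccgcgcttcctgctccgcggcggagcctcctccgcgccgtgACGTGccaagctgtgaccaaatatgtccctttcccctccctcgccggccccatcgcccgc
Pfkfb3 second start: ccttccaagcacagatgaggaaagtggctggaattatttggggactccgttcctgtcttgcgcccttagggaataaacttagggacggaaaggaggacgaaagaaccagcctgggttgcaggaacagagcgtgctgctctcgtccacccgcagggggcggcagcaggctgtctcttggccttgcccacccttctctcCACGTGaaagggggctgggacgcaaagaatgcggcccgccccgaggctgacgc
Pfkfb2: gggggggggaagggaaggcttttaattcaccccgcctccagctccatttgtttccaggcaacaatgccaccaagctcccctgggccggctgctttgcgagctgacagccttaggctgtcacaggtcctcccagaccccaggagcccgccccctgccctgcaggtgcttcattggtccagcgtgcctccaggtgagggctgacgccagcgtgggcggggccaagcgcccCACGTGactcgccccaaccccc
A match of letters is not a binding site, and the arrays do not tell from which start the measured transcripts came. The other 7 genes held neither motif in their windows, which says only that these letters are missing from those 250 bases. ACGTG is not particular to Pfkfb3 and Pfkfb2 among the genes named in this report. It also lay in windows of Slc2a1, Pfkm, Slc16a1 and Ppp1r3c, which were higher in soy on average. Windows of Khk, Ppp1r3g, Ddit4 and P4ha1, which were lower on average, held it too.

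Pfkfb1, which encodes the main liver isoform that glucagon signalling switches from kinase to phosphatase, differed little. Its brighter probe (NM_008824) read 13.20, 13.37 and 13.29 in control and 13.13, 12.78 and 12.93 in soy, a difference of -0.34 (SE 0.12). All 3 soy arrays were below the control arrays, but the distance between soy 1 and control 1 was small, with a difference of -0.16 within slide 1 and -0.36 within slide 3. The second Pfkfb1 probe read 9.60, 9.54 and 9.74 in control and 9.60, 9.29 and 9.37 in soy, and its groups overlapped.

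Pfkfb2, known as the heart isoform, was measured by 3 probes, all lower in soy on average. The brightest (NM_008825) read 11.998, 11.40 and 10.98 in control and 10.88, 10.47 and 10.86 in soy, a difference of -0.72 (SE 0.25). The groups did not overlap, yet the control arrays spread widely (11.46 ± 0.51, SD, n = 3). The difference was -0.82 within slide 1 but only -0.12 within slide 3, since control 3 was close to the soy arrays, and -0.46 without control 1. The probe for NM_001162415 read 9.50, 8.99 and 8.13 in control and 8.21, 7.92 and 8.02 in soy, with control 3 among the soy arrays. The probe for NM_001162416 exceeded background on all 3 control arrays but on 0 of the 3 soy arrays, which puts soy at least 1.39-fold lower. Such a bound sets the mean of the bright group against the lowest signal counted as well above background on each array of the dim group, or against the dim probe itself where that is higher. It holds for the processing used here and does not include the spread between arrays.

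Pfkfb4, the isoform best known from testis, was near background. Its first probe (NM_173019) read 7.49, 7.41 and 7.21 in control and 7.54, 7.48 and 7.77 in soy, a difference of 0.23 (SE 0.12) with overlapping groups. That difference was 0.09 within slide 1, 0.57 within slide 3 and 0.45 with Agilent's processed signal. The second Pfkfb4 probe was well above background on no array. Of the 9 genes, Pfkfb3 alone was called by the rule used for the array as a whole. With Agilent's processed signal in place of the median spot intensity 4 genes were called (Gapdhs, Pfkfb2, Pfkfb3 and Pfkfb4), Pfkfb2 and Pfkfb4 through dim probes, the NM_001162416 probe and the second Pfkfb4 probe. Gapdhs and Pfkfb3 were called without control 3, and among probes well above background in at least 1 group, a filter that Gapdhs passed through its control arrays alone. The rule asked for an adjusted p below 0.05 in limma with Benjamini-Hochberg adjustment over all probes, and a fold above 1.5 or below 0.66. It called 198 of 56605 probes (0.350%), of which 80 (0.141%) were lower and 118 (0.208%) were higher in soy. With the processed signal it called 1214 probes as lower and 11924 as higher. Since the 9 genes were chosen with this comparison known, nothing is read from their count.

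**Figure D2:**
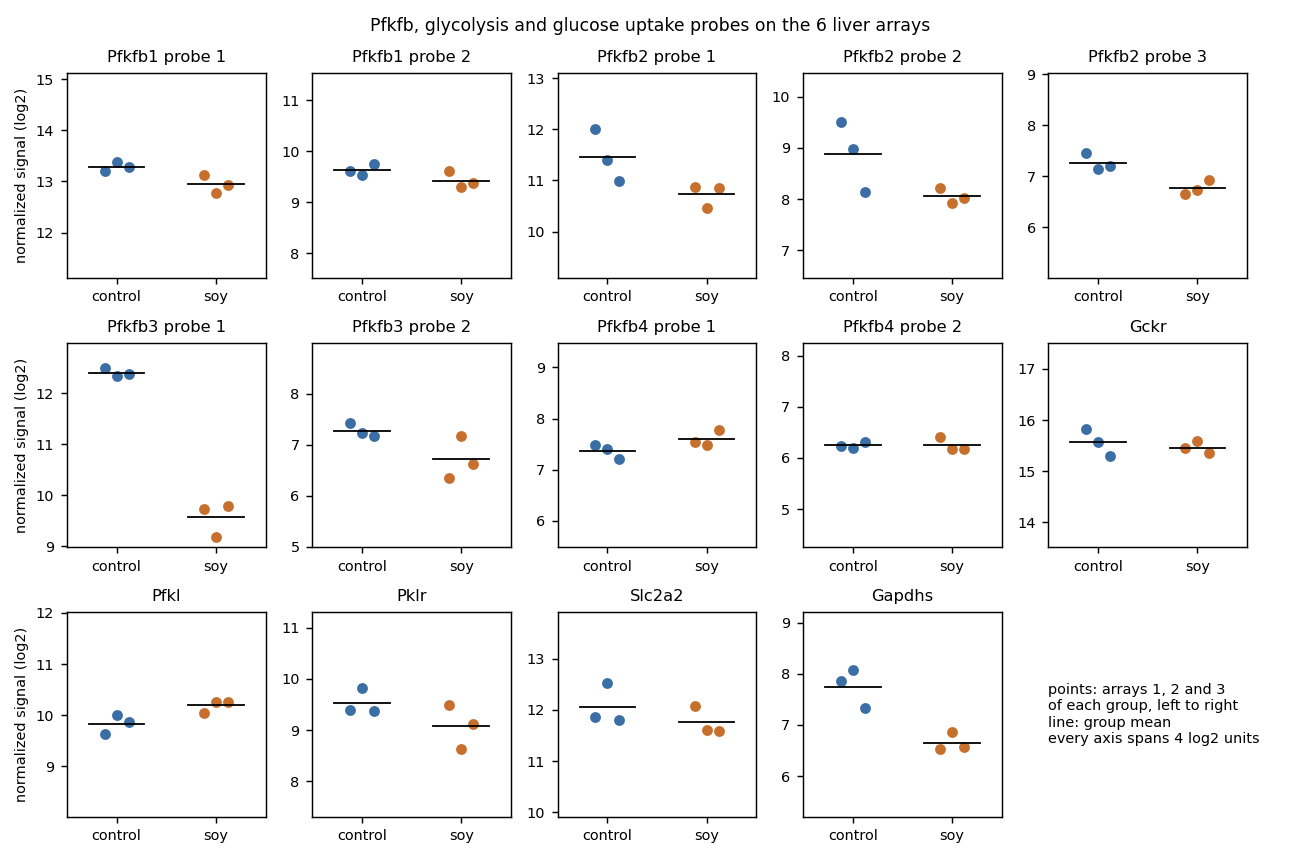
Normalized signal (log2) of the 14 probes of the 9 genes on each of the 3 control and 3 soy arrays, 1 point per array with a line at each group mean. The arrays of a group are drawn in the order 1, 2 and 3, and every axis spans the same number of log2 units. The brighter Pfkfb3 probe shows the widest gap between groups, whereas Gckr, Pklr and Slc2a2 overlap.

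Among the genes of uptake and phosphorylation, Slc2a2 (NM_031197), the low-affinity glucose transporter of hepatocytes, read 11.86, 12.52 and 11.81 in control and 12.07, 11.61 and 11.58 in soy. The difference of -0.31 (SE 0.22) rested on overlapping groups, with control 2 the highest of the 6 arrays, and was -0.08 without control 2. Gckr (NM_144909) read 15.82, 15.57 and 15.30 in control and 15.45, 15.58 and 15.35 in soy, a difference of -0.10 (SE 0.15). Its groups overlapped fully, and the sign turned within slide 3 (0.05) and without control 1 (0.03).

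Of the enzymes of glycolysis itself, Pfkl (NM_008826), the liver subunit of phosphofructokinase that fructose 2,6-bisphosphate activates, was the only gene of the 9 with all 3 soy arrays above the control arrays. It read 9.64, 10.001 and 9.86 in control and 10.05, 10.27 and 10.26 in soy, a difference of 0.36 (SE 0.13) that was 0.23 within slide 1 and 0.40 within slide 3. Pklr (NM_013631), which encodes the liver and red cell pyruvate kinase, read 9.39, 9.83 and 9.38 in control and 9.48, 8.64 and 9.11 in soy. Its difference of -0.45 (SE 0.23) was carried by soy 2 and soy 3, with -0.23 without soy 2, and soy 1 lay among the control arrays.

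Gapdhs (NM_008085), the glyceraldehyde phosphate dehydrogenase of spermatids, was detected weakly in control livers. It read 7.86, 8.07 and 7.32 in control and 6.54, 6.87 and 6.56 in soy, so that the groups did not overlap. With 3 of 3 control arrays but 0 of 3 soy arrays well above background, the bound put soy at least 2.12-fold lower. The measured fold was close to it, at 2.14. The bound uses all 6 arrays, and control 3 was the lowest of the control arrays. The measured difference of -1.09 was -0.91 with a 75th percentile shift as normalization, -0.94 without control 2 and -1.31 without control 3. Over the 6 male germ cell markers, none was called in limma and 0 had an unadjusted p below 0.05, with a median difference of -0.14. Their most abundant gene, Prm1, a protamine of sperm chromatin, read 9.61, 10.21 and 11.60 in control and 9.17, 10.81 and 10.50 in soy, and the sperm tail gene Odf1 was well above background on no array. The summed linear signal of these markers was 1495.6, 1861.4 and 3797.7 in control and 1243.1, 2450.6 and 2050.7 in soy. Without Prm1 it was 712.7, 673.1 and 689.9 in control and 665.8, 659.3 and 601.2 in soy, lower on every soy array. Besides Odf1, this sum includes Tnp2, well above background on 2 control and 0 soy arrays, and Akap4, on 1 and 0. It is therefore in part signal near background. Of the 6 markers 5 were lower in soy, 1 of them without overlap, beside 10.8% of all genes, and the part of such transcripts in the Gapdhs values was not tested.

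Over the 14 probes, 11 were lower and 3 were higher in soy, 6 had all soy arrays below all control arrays, 1 had all above and 7 overlapped, with a median difference of -0.40. Over all probes the median was -0.01, and 10.3% had soy below control without overlap, 7.75% had soy above control and 18.0% had either. Taking the brightest probe of each gene, 4 of the 9 genes had soy below control and 1 above, beside 10.8% and 9.67% of all genes, or 20.4% in either direction. These shares were fixed in part by the choice of genes and carry no test.

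**Figure D3:**
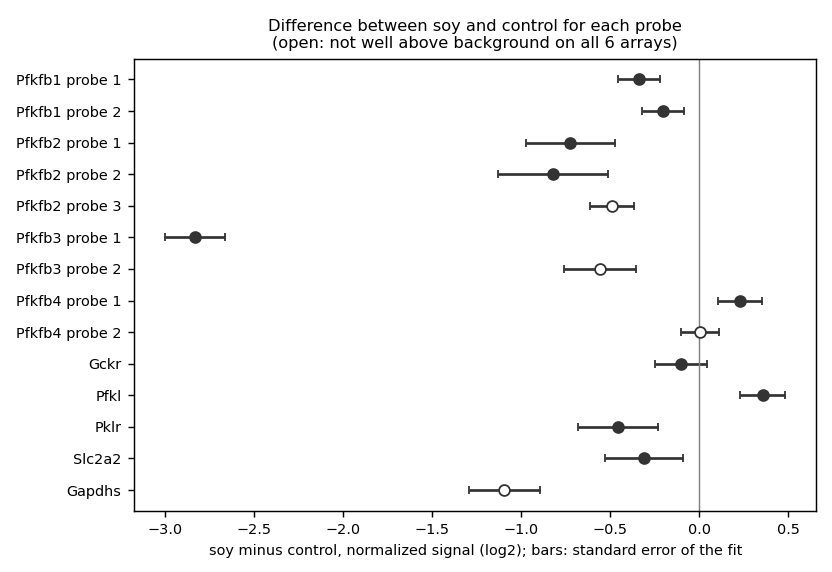
Difference (log2, soy minus control) of each of the 14 probes with bars of 1 SE of the fit, open where the probe was not well above background on all 6 arrays. The brighter Pfkfb3 probe lies at -2.83, and the open points, Gapdhs among them, rest on signals near background.

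The wider pathway was described with 81 further genes in 11 lists that leave out the 9 genes above. Of these, 39 were lower and 42 were higher in soy, and 1 rose by the rule while 0 fell. The background was 122 of 22911 genes called on at least 1 probe (0.532%), with 78 higher (0.340%) and 44 lower (0.192%). At an unadjusted p below 0.05 in limma, 16 of the 81 genes (19.8%) were counted, beside 14.3% of all genes on their brightest probe. Of the 81 genes, 8 had soy below control without overlap, 10 had soy above and 63 overlapped, near the 10.8% and 9.67% of all genes. The median difference was 0.03, against -0.01 over all genes.

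**Figure D4:**
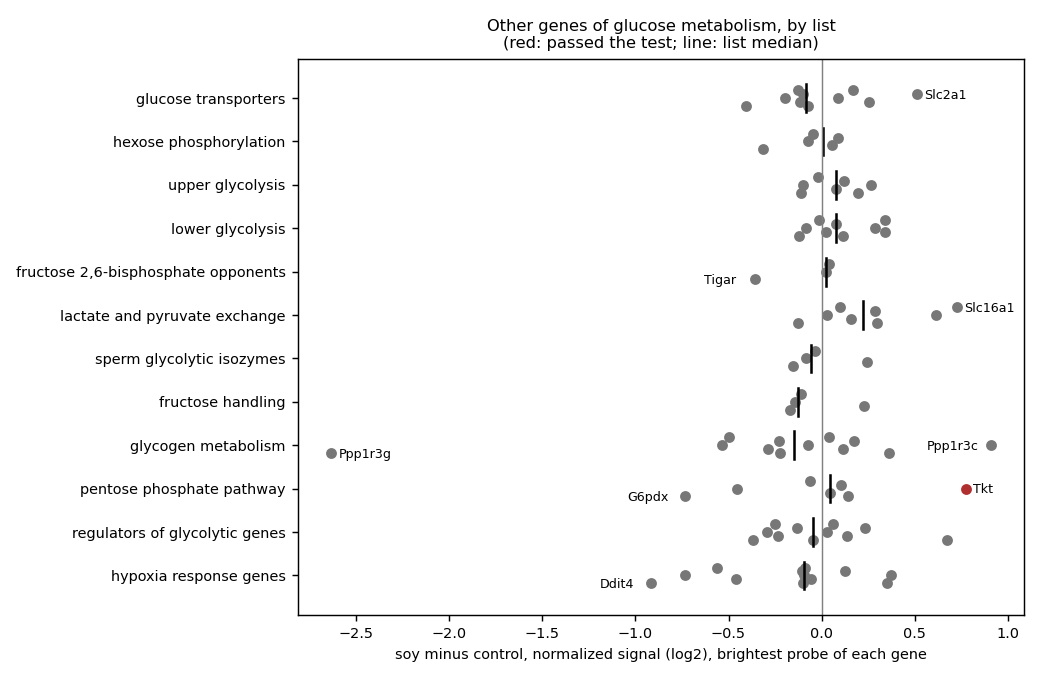
Difference (log2, soy minus control) of each gene of the 11 pathway lists and the hypoxia list on its brightest probe, 1 point per gene, with a line at each list's median and the gene that passed the test in red. Medians lie between -0.15 and 0.22, and Ppp1r3g at -2.63 stands farthest out, with 1 gene of the hexose phosphorylation list not drawn.

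The gene that rose was Tkt (NM_009388), the transketolase that links the pentose phosphate pathway with glycolysis. It read 13.87, 13.95 and 13.75 in control and 14.74, 14.57 and 14.59 in soy, a 1.71-fold difference of 0.78 (SE 0.10, adjusted p = 0.0364, limma). All soy arrays were above all control arrays, and the difference was 0.83 within slide 1 and 0.84 within slide 3. With any 1 of the 6 arrays left out (control 1, 2 or 3, or soy 1, 2 or 3), the adjusted p in limma lay between 0.0791 and 0.125, above the threshold, and over all the alternatives it ranged from 0.00707 to 0.136. In the same list G6pdx (NM_008062), which catalyses the first step of the pentose phosphate pathway, had a difference of -0.73 (SE 0.23, adjusted p = 0.283, limma) that was -1.07 within slide 1 and -0.01 within slide 3. The 7 genes of this list had a median of 0.04, with 2 below and 2 above control without overlap, beside 10.8% and 9.67% of all genes.

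In the list of hexose phosphorylation, 0 of 6 genes were called and 1 had an unadjusted p below 0.05 in limma, with a median of 0.01. Hk1 (NM_001146100), a hexokinase of most other tissues, had a difference of -0.32 (SE 0.16, adjusted p = 0.522, limma).

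Glycogen genes held the lowest difference of the 81. Ppp1r3g (NM_029628), a glycogen-targeting subunit of protein phosphatase, read 12.18, 10.84 and 9.91 in control and 8.76, 7.96 and 8.31 in soy. The groups did not overlap, but the control arrays differed among themselves (10.98 ± 1.1, SD, n = 3) and the difference of -2.63 (SE 0.51) missed the threshold (adjusted p = 0.1003, limma). It was -2.75 within slide 1 and -1.60 within slide 3, and it passed without control 3 (difference -3.17, adjusted p = 0.0484, limma), over a range of adjusted p from 0.0176 to 0.272 among the alternatives. Ppp1r3c (NM_016854), a related targeting subunit, had a difference of 0.91 (SE 0.51, adjusted p = 0.553, limma) that was -0.04 within slide 1 and 2.66 within slide 3. Of the 12 glycogen genes, 0 were called in limma, 4 had an unadjusted p below 0.05, and the median was -0.15.

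Glucose transporters other than Slc2a2 had a median of -0.09 over 10 genes, with 0 called and 1 at an unadjusted p below 0.05 in limma. Slc2a1 (NM_011400), the transporter of most cell types, read 10.54, 10.89 and 10.42 in control and 11.22, 11.07 and 11.10 in soy. Its soy arrays were all above control, with a difference of 0.51 (SE 0.14, adjusted p = 0.202, limma). Slc2a5 (NM_019741), a fructose transporter, had a difference of -0.41 (SE 0.20, adjusted p = 0.490, limma).

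The remaining steps of glycolysis had small differences. Upper glycolysis had a median of 0.08 over 7 genes and lower glycolysis 0.08 over 9 genes, with 0 called in either and 1 and 2 genes at an unadjusted p below 0.05 in limma. The muscle phosphofructokinase Pfkm (NM_021514) had a difference of 0.26 (SE 0.11, adjusted p = 0.400, limma), and the enolase Eno1 (NM_023119) had one of 0.34 (SE 0.097, adjusted p = 0.228, limma). Tpi1 (NM_009415), the triose phosphate isomerase, and Bpgm (NM_007563), the bisphosphoglycerate mutase, had differences of 0.20 (adjusted p = 0.472, limma) and 0.34 (adjusted p = 0.402, limma). On the brightest probe of these genes, 2 of the 7 upper and 2 of the 9 lower ones, every soy array was above every control array, beside 9.67% of all genes, and the others overlapped. Within slides, the difference was 0.12 (slide 1) and 0.49 (slide 3) for Pfkm and 0.07 (slide 3) for Bpgm.

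Of the 3 genes whose products oppose fructose 2,6-bisphosphate or its effect, 0 were called and 1 had an unadjusted p below 0.05 in limma. Tigar (NM_177003), which breaks down the same metabolite as the PFKFB phosphatases, read 10.93, 10.59 and 10.78 in control and 10.26, 10.41 and 10.54 in soy. Its soy arrays were all below control, with a difference of -0.36 (SE 0.13, adjusted p = 0.330, limma). Fbp1 (NM_019395), the gluconeogenic fructose bisphosphatase, differed by 0.04 (SE 0.10, adjusted p = 0.916, limma), and its sign depended on the scaling.

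Lactate and pyruvate exchange had 7 of 8 genes higher in soy and a median of 0.22, with 0 called and 1 at an unadjusted p below 0.05 in limma. Slc16a1 (NM_009196), a monocarboxylate transporter, read 11.30, 11.20 and 11.84 in control and 11.98, 12.07 and 12.48 in soy, a difference of 0.73 (SE 0.20, adjusted p = 0.219, limma) without overlap. Ldhb (NM_008492), a lactate dehydrogenase subunit, had a difference of 0.62 (SE 0.36, adjusted p = 0.579, limma) that was 1.57 within slide 3, 0.31 without soy 3 and 1.03 without soy 2. Fructose handling (4 genes, median -0.13) and the sperm glycolytic isozymes other than Gapdhs (4 genes, median -0.06) had 0 called and 0 at an unadjusted p below 0.05 in limma. In these lists the ketohexokinase Khk (NM_008439) differed by -0.17 (adjusted p = 0.726, limma), the sorbitol dehydrogenase Sord (NM_146126) by 0.23 (adjusted p = 0.561, limma) and the sperm phosphoglycerate kinase Pgk2 (NM_031190) by -0.04 (adjusted p = 0.959, limma), the last with a sign that turned with the scaling. The sperm isozymes were near background, with Pgk2 well above it on 3 of 3 control and 1 of 3 soy arrays. Ldhc was so on 2 control and 0 soy arrays, Aldoart2 on 1 and 0, and Aldoart1 on 0 and 0. Signals this low can show little of a fall, so a fall of these isozymes could not be judged.

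Among 11 regulators of glycolytic genes, 0 were called and 2 had an unadjusted p below 0.05 in limma, with a median of -0.05. Srebf1 (NM_011480), the lipogenic factor that insulin induces, had a difference of 0.68 (SE 0.34, adjusted p = 0.512, limma) that was 0.38 without soy 1, 0.40 without control 3 and 1.13 within slide 3. Epas1 (NM_010137), a hypoxia-inducible factor subunit, had one of -0.37 (SE 0.15, adjusted p = 0.394, limma). Genes of the hypoxia response, to which Pfkfb3 itself is often assigned, were 9 lower and 3 higher of 12, with a median of -0.10. In this list 0 were called and 2 had an unadjusted p below 0.05 in limma. Without overlap, 0 of the 12 had soy below control and 2 had soy above, beside 10.8% and 9.67% of all genes. The latter were Ankrd37 (NM_001039562), an ankyrin repeat gene, with a difference of 0.35 (SE 0.13, adjusted p = 0.349, limma), and P4ha2 (NM_011031), a collagen prolyl hydroxylase, with one of 0.38 (SE 0.18, adjusted p = 0.478, limma). Ddit4 (NM_029083), a stress-induced inhibitor of the mTOR kinase, read 13.48, 11.55 and 11.23 in control and 11.62, 10.98 and 10.91 in soy, and the difference of -0.92 (SE 0.54, adjusted p = 0.580, limma) was -0.22 without control 1. P4ha1 (NM_011030), a related hydroxylase, had a difference of -0.74 (SE 0.30, adjusted p = 0.413, limma), also with control 1 the highest array, and was -0.37 without it.

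Markers of the cells that liver tissue can hold were read beside these genes. Of 67 genes in 10 lists, 0 were called and 9 had an unadjusted p below 0.05 in limma, beside 14.3% of all genes. Their median difference was -0.03. The hepatocyte list had 8 of 10 genes lower in soy and a median of -0.15, and its most abundant gene Serpina1b, an antitrypsin, differed by -0.03 (adjusted p = 0.956, limma). In this list 0 genes were called and 4 of 10 had an unadjusted p below 0.05 in limma, beside 14.3% of all genes. Of these, the urea cycle genes Cps1 (difference -0.47) and Ass1 (-0.55) had soy below control without overlap, beside 10.8% of all genes. The rest, with overlap, were the tyrosine aminotransferase Tat (-0.76) and the apolipoprotein Apob (0.46). The summed linear signal of the hepatocyte list was 2351240, 2470840 and 2375700 in control and 2280790, 2205410 and 2053950 in soy, lower on every soy array, and its part in the values above was not tested. The leukocyte list had 6 of 7 genes higher in soy and a median of 0.28, the highest of the 10 lists. In this list 0 genes were called and 2 of 7 had an unadjusted p below 0.05 in limma, beside 14.3% of all genes. These were Itgam and the pan-leukocyte phosphatase Ptprc (difference 0.28, adjusted p = 0.406, limma). Both had soy above control without overlap, beside 9.67% of all genes. Its summed linear signal was 10407.5, 13534.6 and 15098.8 in control and 17576.7, 24425.0 and 16618.6 in soy. Without its most abundant gene Itgam the sum was 6222.1, 6497.6 and 6457.6 in control and 6372.3, 7553.8 and 6622.6 in soy, with overlapping groups. Itgam, an integrin of neutrophils and macrophages, differed by 0.96 (SE 0.29, adjusted p = 0.266, limma), whereas another Itgam probe, well above background on 1 of 3 soy arrays, had a difference of -0.40. The part of leukocyte RNA in the Pfkfb3 difference was not tested.

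Kupffer cell markers were 1 lower and 6 higher of 7 genes (median 0.15), with the receptor Csf1r (difference 0.23) as the most abundant gene. Endothelial markers were 4 lower and 4 higher of 8 genes (median 0.07), with the lectin Clec4g (difference 0.20) as the most abundant gene. Stellate cell markers were 6 lower and 2 higher of 8 genes, with a median of -0.16 and Reln at -0.23 as the most abundant gene. In this list 0 genes were called and 3 of 8 had an unadjusted p below 0.05 in limma, beside 14.3% of all genes. Of these 3, Rgs5, a pericyte gene, had a difference of 0.33 with overlapping groups. The others, the collagens Col1a1 (-0.99) and Col3a1 (-0.94), had every soy array below every control array, beside 10.8% of all genes. Neither collagen passed the test (adjusted p = 0.317 and 0.271, limma). Cholangiocyte markers (median -0.01, 6 genes, Spp1 0.15) and red cell markers (median 0.26, 5 genes, Hba-a1 0.26) overlapped for their most abundant genes. In adipocyte markers (median -0.08, 5 genes, Fabp4 -0.15) the defining genes Adipoq and Plin1 were well above background on no array. The same held for Ckm, Myh4 and Mb among the skeletal muscle markers (median 0.09, 5 genes, Tnnt3 -0.03) and for Epcam among those of cholangiocytes.

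The pattern of Pfkfb3 over the 6 arrays was then set beside that of 15105 other genes on their brightest probe. The genes most like it by Pearson correlation were Neurl2 (r = 0.999), Olfr24 (r = 0.997), Tagap (r = 0.996), Ell2 (r = 0.996) and Zfp951 (r = 0.995). The differences were -0.31 for Neurl2, -0.41 for Tagap and -0.73 for Ell2, which were well above background on all 6 arrays. On the soy arrays Olfr24 was so on 1 of 3 and Zfp951 on 0 of 3, so their r rests on signals near background. The arrays form 2 separate groups of 3, so these coefficients carry no p. In the set itself, r with Pfkfb3 was 0.870 for Pfkfb1, 0.790 for Pfkfb2, 0.681 for Pklr, 0.488 for Slc2a2, 0.268 for Gckr, -0.613 for Pfkfb4 and -0.841 for Pfkl. It was 0.879 for Gapdhs, which exceeded background on 0 of the 3 soy arrays, so that this r too rests on signals near background. All genes were read on the same 6 arrays, and the values are descriptive.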

How the data were processed

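Total liver RNA of 6 mice was hybridised to Agilent 1-colour (Cy3) arrays, 1 per mouse, and the groups were taken from the sample labels. The 9 genes and all gene lists were chosen with earlier results of these data known. The authors deposited the scanner output of Agilent Feature Extraction 11.5.1.1 (intensity per spot) and a table of log2 values per probe, which differed from the values computed here by at most 0.0561. The arrays do not measure depth, and their number limits the precision.

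Median intensities were background-corrected against the local median background (normexp, offset 50, R 4.3.3, limma 3.58.1), quantile-normalized and put on the log2 scale. Control spots were removed after background correction, outlier spots were left out and spots of a probe were averaged. A linear model with empirical Bayes moderation was fitted to all 6 arrays and 56605 probes in limma, with Benjamini-Hochberg adjustment over all probes. Probes were called at an adjusted p below 0.05 and a fold above 1.5 or below 0.66, and the fitting was tested on simulated data. Symbols came from RefSeq (GRCm38.p6) through the transcript accession, which matched 32994 probes (58.3%), and a gene is represented by its brightest probe, that is the one with the highest mean signal over all arrays. Levels of single probes were not compared with each other, except that the most abundant gene of a cell type list is the one with the brightest probe and that signals were summed over such a list.

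The text names the 9 genes, any pathway or hypoxia gene that was called, the 2 genes with the largest absolute difference of each such list among probes well above background in at least 1 group, the most abundant gene of each cell type list, and the 5 genes most correlated with Pfkfb3. Ankrd37, P4ha2, Cps1, Ass1, Tat, Apob, Rgs5, Ptprc, Col1a1, Col3a1, Odf1, Tnp2, Akap4, Ldhc, Aldoart1, Aldoart2 and the markers at background are named beside this rule and were chosen after their values were seen. Some genes that the lists or this rule include are not reported here by name. Same-numbered control and soy samples deviated together with r = 0.103, -0.0547 and 0.102 over 32338 probes. Samples with different numbers had r from -0.191 to 0.0978, and control 2 and soy 1, on the same slide, had 0.0914. The same-numbered samples 1 and 3 also shared a slide, so number and slide could not be told apart for them. The numbers were not taken to pair the mice. The alternatives were other background corrections, offsets, starting signals, normalizations, filters, variance models, a block for the slide or for the replicate number, and leaving out each array.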

Additional observations from a re-analysis of the deposited data

How the results depend on the processing

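Against 198 probes called, there were 77 with an offset of 16, 299 with a 75th percentile shift, 493 among probes well above background, 13138 with the processed signal (90.8% higher, against 59.6%), 24 with the slide as a block and 23 to 199 with 1 array left out (23 without soy 3, 25 without soy 2, 50 without soy 1, 71 without control 2, 102 without control 1). Both the processed signal and the 75th percentile shift moved the median of all probes to 0.13. Of the pathway genes, 1 was called, but 0 with an offset of 16 or the slide as a block, 9 with the processed signal (among them Aldoart1, Ldhc, Ppp1r3g, Slc16a1, Slc2a1, Slc2a12, Slc2a3 and Tkt), 2 among probes well above background (Tkt among them) and 0 to 1 with 1 array left out (Ppp1r3g without control 3). The causes were not tested.

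With the replicate number as a block, 77 probes and 0 pathway genes were called. Pfkfb3 was called as well, from which nothing is read, since its fall led to the choice of the set. No pairing of the mice by number was assumed.

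Pfkfb3 was lower in soy in every setting run, at -2.58 within slide 3, -1.69 as the mean of its 2 probes and -2.94 to -2.64 with 1 array left out. Signs turned for Gckr within slide 3 (0.05) and without control 1 (0.03), Hk1 within slide 3 (0.0014), Ppp1r3c within slide 1 (-0.039), Fbp1 under the 75th percentile shift (-0.0030) and with 1 array left out (-0.014 to 0.078), and Pgk2 under the 75th percentile shift (0.16), cyclic loess (0.028) and with 1 array left out (-0.23 to 0.10). Leaving out 1 array moved other differences by over 1.5 times, for Pfkfb4 to 0.14 (without soy 3) and 0.15 (control 3), Hk1 to -0.13 (control 1), Slc2a5 to -0.25 (soy 3), Sord to 0.12 (soy 3), Khk to between -0.28 (control 3) and -0.05 (control 1), and Ppp1r3c to between 0.46 (control 3) and 1.397 (control 1). The measured Gapdhs difference of -1.09, with soy signals not well above background, was -2.49 with the processed signal, -1.44 with an offset of 16, -1.43 within slide 1 and -0.76 within slide 3. Precision is limited by 3 arrays a group and, for dim probes, by signal near background.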
